A study of Mus musculus with 21 samples.

Results

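Interleukin-17-producing gamma delta T cells are lymphocytes that leave the thymus already committed to making interleukin-17. They live in barrier tissues and in the coverings of the brain, and they respond to cytokines such as interleukin-1, interleukin-23 and interleukin-18 without waiting for an antigen. Interleukin-17 acts on epithelium, glia and stroma and draws neutrophils into tissue. The retina behind its blood barrier normally holds few T cells. Described here are 8 genes of these and related T cells, of the 17164 genes counted in the data: Cd163l1, Il17a, Il18r1, Il18rap, Il2ra, Tnfsf11, Aqp3 and Cd226. They were picked from a list of such genes with their measured levels known, because they stood high in knockout libraries and at or near 0 in control libraries. Their differences from control are therefore given as description, without a test.

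The RNA came from C57BL/6 mouse retinas taken apart with papain and sorted for retinal ganglion cells, which send their axons through the optic nerve to the brain. All groups shared an optic nerve crush 3 days earlier and an age of 6 to 7 weeks. One group was given a control sgRNA and each of the others an sgRNA to knock out a transcription factor of the stress response: ATF3, ATF4, CEBPG or CHOP (encoded by Ddit3). The groups held 4 control libraries (male, batch 2), 5 ATF3 (female, batch 3), 2 ATF4 (batch 1, 1 entered as female and 1 as male), 4 CEBPG (female, batch 3) and 5 CHOP libraries (female, batch 3). The route of the sgRNA, the source of the nuclease and the sort gate were not given in the sources used. In every comparison against control, the knockout, the batch and, outside ATF4, the sex cannot be told apart. The ATF3, CEBPG and CHOP libraries share a batch and a sex, so their comparisons with each other carry the tests below.

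Levels are in CPM, the reads of a gene scaled to a common library total after TMM normalization. Counted reads ran from 6401446 to 11752828 in the controls, from 11929692 to 12404601 in ATF4, from 9000250 to 29810987 in CEBPG and from 14272784 to 32776378 in the ATF3 and CHOP libraries. Transcripts of the targeted gene were below every control library in the ATF3 (30.6 to 48.0 against 103.6 to 125 CPM), ATF4 (148 to 160 against 216 to 387 CPM) and CHOP groups (57.4 to 72.6 against 75.4 to 109 CPM). Cebpg in the CEBPG group, at 49.2 to 92.4 CPM, overlapped the controls at 74.6 to 93.6 CPM. The sorted material held RNA of other cells in every group: 10 rod genes summed to 30186 to 48331 CPM in the controls and to 2560 to 7321 CPM in the knockout libraries, while 12 ganglion cell genes summed to between 461 and 776 CPM over all groups. The controls thus held more rod RNA than any knockout library, and the part of this in the levels against control was not tested. A setting that leaves out CEBPG replicates 6 and 8 together was added after the data were seen. Counts without these libraries are given where the counts differ by over 1.5 times.

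T cell RNA was measured through genes that all T cells share. Cd3d, Cd3e and Cd3g, which encode the signalling chains of the T cell receptor, summed to 1.08 to 3.93 CPM in the controls, 5.11 and 27.6 CPM in ATF4, 105 to 133 CPM in ATF3, 107 to 158 CPM in CHOP and 426 to 734 CPM in CEBPG. The ATF3 and CHOP ranges overlapped, and every CEBPG library lay above both. In bulk samples, fewer cells of a type and less RNA per cell cannot be told apart, and this holds for each level below. The receptor genes that define gamma delta T cells were not analysed here, since 0 of 20 listed have a row in the counts used. The label therefore rests on Cd163l1 and Il17a, and which cells carried these or the other 6 genes was not measured.

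Of the 8 genes, Cd163l1 and Il17a were taken as closest to the interleukin-17-producing gamma delta cell, which these data do not test. Cd163l1 (mm10 chromosome 7, 140218267 to 140231145, plus strand) encodes a scavenger receptor found on these cells, and Il17a (chromosome 1, 20730905 to 20734496, plus strand) encodes the cytokine itself. Il18r1 (chromosome 1, 40465552 to 40500854, plus strand) encodes a chain of the interleukin-18 receptor that natural killer and helper T cells also use. Their promoters, from 250 bases before to 50 bases after the start site, are shown because the genes differed in which tests below they passed. Cd163l1 and Il17a passed in both comparisons with CHOP, and Il18r1 passed in both comparisons with CEBPG. Capitals mark matches to short motifs. In Il17a they are TGAATCA, a match to TGANTCA, and the nuclear receptor half-site AGGTCA on the opposite strand. The letters TGANTCA are a loosened form of the AP-1 element, with any base at N. In Cd163l1 and Il18r1 the match is to the NFAT core TGGAAA on the opposite strand. Sequences are RefSeq's for GRCm38.p6, which is mm10, given 5′ to 3′ on the plus strand.
Il17a, chr1:20730655-20730954: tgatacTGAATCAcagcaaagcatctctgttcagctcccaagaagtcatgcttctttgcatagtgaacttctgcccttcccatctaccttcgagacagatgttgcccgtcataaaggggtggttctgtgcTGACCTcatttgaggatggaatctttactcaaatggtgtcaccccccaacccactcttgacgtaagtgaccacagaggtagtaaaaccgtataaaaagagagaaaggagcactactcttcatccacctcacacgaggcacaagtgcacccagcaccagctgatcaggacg
Cd163l1, chr7:140218017-140218316: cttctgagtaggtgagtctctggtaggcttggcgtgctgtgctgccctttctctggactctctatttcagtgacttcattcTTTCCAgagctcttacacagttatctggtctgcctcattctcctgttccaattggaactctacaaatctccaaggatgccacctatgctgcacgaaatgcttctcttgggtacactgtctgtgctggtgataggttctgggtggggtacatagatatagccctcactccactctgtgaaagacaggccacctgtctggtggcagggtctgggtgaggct
Il18r1, chr1:40465302-40465601: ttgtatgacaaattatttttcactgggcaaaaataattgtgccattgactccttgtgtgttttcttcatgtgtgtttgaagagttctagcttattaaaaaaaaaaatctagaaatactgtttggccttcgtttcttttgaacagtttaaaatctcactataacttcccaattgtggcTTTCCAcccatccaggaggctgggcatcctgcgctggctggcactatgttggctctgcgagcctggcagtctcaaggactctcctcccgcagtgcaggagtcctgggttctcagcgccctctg

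Promoters in the RefSeq table were examined for 7 of the 8 genes. Cd226, on chromosome 18, was left out of this search. Each motif was searched on both strands of all 32851 promoters of that table, which share the length, and no marked match overlaps another. Among the 7 genes, the nuclear receptor half-site was in Il17a only, beginning 120 bases before its start, and was in 16.3% of all promoters. The loosened AP-1 letters TGANTCA were also in Il17a only among the 7, 244 bases before the start, and were in 7.81% of all promoters. Of the 7, Cd163l1 and Il18r1 had the NFAT core, which was in 21.4% of all promoters. The 7 genes had 9 promoter windows, of which Il18r1 had 3, and the core was in its first and second windows, which share the site, and not in the other one. No match to TGATGNAA (3.97% of promoters), the letters bound by ATF4 with C/EBP partners, to the C/EBP letters TTGCNNAA (10.8%) or to the T-box letters AGGTGTGA (1.28%) was found in the windows of the 7 genes. These are matches of letters in a short window and describe no binding.

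Cd163l1 had no read in any control or ATF4 library. Its level was 83.1, 88.9, 91.9, 99.6 and 101 CPM in the 5 ATF3 libraries and 84.7, 110, 118 and 126 CPM in the 4 CEBPG libraries. In the CHOP libraries it was 2.92, 4.99, 5.06, 13.7 and 15.9 CPM. ATF3 and CEBPG overlapped, and every CHOP library lay far below both. Against 3 reads summed over the controls (0.0746 CPM), which is the floor used for genes with no control read, the mean was at least 1245-fold higher in ATF3 (92.8 ± 7.40 CPM, SD, n = 5), at least 1473-fold higher in CEBPG (110 ± 18.0 CPM, n = 4) and at least 114-fold higher in CHOP (8.51 ± 5.85 CPM, n = 5). These floors cover counting error only.

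Between knockouts of the shared batch, Cd163l1 was higher in CEBPG than in CHOP (log2 fold change 3.71, SE 0.36, adjusted p = 4.14e-07, edgeR's quasi-likelihood test with Benjamini-Hochberg adjustment over 16797 genes). It was lower in CHOP than in ATF3 (log2 fold change -3.47, SE 0.35, adjusted p = 1.17e-05). CEBPG and ATF3 overlapped, and their difference of 0.24 on the log2 scale (SE 0.33) had an adjusted p of 0.663. These genes were chosen with the values of the same libraries known, so their p-values here and below are no independent evidence.

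Il17a also had no read in any control or ATF4 library. It was at 2.43, 6.19, 6.45, 13.2 and 14.9 CPM in ATF3 and at 15.5, 18.0, 22.7 and 26.0 CPM in CEBPG. In CHOP it was at 0.843 and 1.47 CPM in replicates 3 and 1 and had no read in the other three libraries. Every CEBPG library lay above every ATF3 library, and every ATF3 library above every CHOP library. The mean was at least 116-fold above the control floor in ATF3 (8.62 ± 5.21 CPM), at least 276-fold in CEBPG (20.6 ± 4.70 CPM) and at least 6.21-fold in CHOP (0.463 ± 0.671 CPM). Il17a was higher in CEBPG than in CHOP (log2 fold change 5.57, SE 1.0, adjusted p = 0.000346) and lower in CHOP than in ATF3 (-4.31, SE 0.94, adjusted p = 0.0155). The difference between CEBPG and ATF3, whose libraries did not overlap, did not pass (1.25, SE 0.83, adjusted p = 0.318).

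Tnfsf11 (chromosome 14, 78277445 to 78308043, minus strand) encodes RANKL, a ligand of activated T cells that drives the formation of osteoclasts and acts on dendritic cells. It had no read in the controls and 16 reads (1.39 CPM) in ATF4 replicate 1, with none in ATF4 replicate 3. It was at 2.62, 4.22, 5.55, 6.51 and 7.62 CPM in ATF3, at 2.25, 3.08, 3.24, 4.30 and 4.77 CPM in CHOP and at 12.7, 23.1, 32.3 and 45.0 CPM in CEBPG. ATF3 and CHOP overlapped, and CEBPG lay above both. The mean was at least 71.1-fold, 47.3-fold and 379-fold above the control floor in ATF3, CHOP and CEBPG. Tnfsf11 was higher in CEBPG than in ATF3 (log2 fold change 2.41, SE 0.52, adjusted p = 0.00221) and than in CHOP (3.00, SE 0.53, adjusted p = 0.000283).

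**Figure D1:**
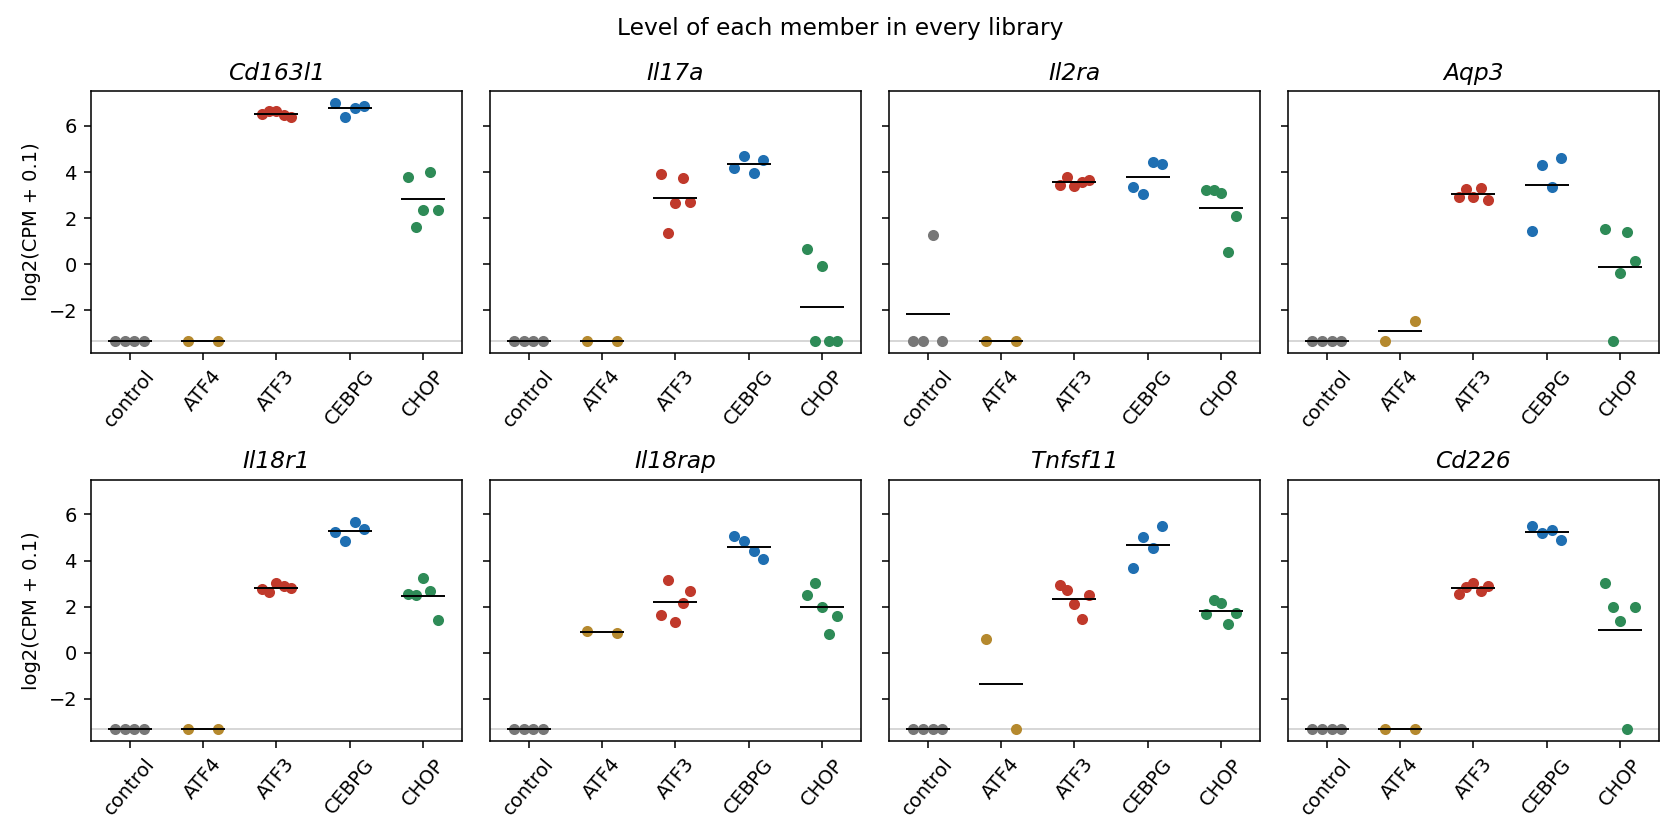
Level of each of the 8 genes in every library, as log2 of CPM plus 0.1, by group, with 1 point per library and a line at the mean of the plotted values; the grey line marks 0 reads. Cd163l1 sits between 83.1 and 126 CPM in ATF3 and CEBPG and at most at 15.9 CPM in CHOP, while Il18r1, Il18rap, Tnfsf11 and Cd226 are at their highest in CEBPG and overlap between ATF3 and CHOP.

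Il18r1 and Il18rap lie side by side on chromosome 1, with Il18rap (40515362 to 40551705, plus strand) beginning 14507 bases after the end of Il18r1. Il18r1 encodes the chain that binds interleukin-18 and Il18rap the accessory chain needed for its signal. Il18r1 had no read in any control or ATF4 library. It was at 6.12, 6.76, 6.92, 7.27 and 8.09 CPM in ATF3, at 2.54, 5.58, 5.81, 6.29 and 9.31 CPM in CHOP and at 29.0, 37.6, 40.8 and 50.8 CPM in CEBPG. ATF3 and CHOP overlapped, and the lowest CEBPG library was far above both. Il18r1 was higher in CEBPG than in ATF3 (log2 fold change 2.49, SE 0.31, adjusted p = 1.23e-05) and than in CHOP (2.74, SE 0.32, adjusted p = 3.15e-06).

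Il18rap was the 1 gene of the 8 with reads in both ATF4 libraries, at 1.70 and 1.82 CPM (21 reads in each), and it had none in the controls. It was at 2.41, 3.00, 4.29, 6.29 and 8.94 CPM in ATF3, at 1.65, 2.91, 3.88, 5.53 and 8.03 CPM in CHOP and at 16.6, 21.3, 28.8 and 33.5 CPM in CEBPG. Again ATF3 and CHOP overlapped and CEBPG lay above them. Il18rap was higher in CEBPG than in ATF3 (log2 fold change 2.33, SE 0.45, adjusted p = 0.000867) and than in CHOP (2.50, SE 0.46, adjusted p = 0.00035). Against the control floor, Il18r1 was at least 94.3-fold, 79.2-fold and 531-fold higher in ATF3, CHOP and CEBPG. For Il18rap the bounds were at least 66.9-fold, 59.0-fold and 336-fold, with at least 23.6-fold in ATF4.

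Il2ra (chromosome 2, 11642807 to 11693193, plus strand) encodes CD25, the chain that gives the interleukin-2 receptor its high affinity, on regulatory and activated T cells and on gamma delta cells that make interleukin-17. It alone had reads in a control, 27 in replicate 7 (2.30 CPM), with none in the other three controls or in ATF4. It was at 10.3, 10.7, 11.9, 12.6 and 13.8 CPM in ATF3, at 8.04, 10.2, 20.5 and 21.8 CPM in CEBPG and at 1.35, 4.20, 8.47, 9.17 and 9.19 CPM in CHOP. ATF3 lay above CHOP without overlap, and CEBPG overlapped both, with 2 CHOP libraries below every CEBPG library. None of the 3 differences passed the test: CEBPG minus ATF3 was 0.36 (SE 0.68, adjusted p = 0.763), CEBPG minus CHOP 1.23 (SE 0.68, adjusted p = 0.197) and CHOP minus ATF3 -0.87 (SE 0.65, adjusted p = 0.682) on the log2 scale. With only the 14 libraries of the 3 groups fitted, CEBPG minus CHOP passed (1.24, adjusted p = 0.0377). The mean was 20.6-fold, 26.4-fold and 11.3-fold that of the controls in ATF3, CEBPG and CHOP, and these folds rest on control replicate 7. Without it the other three controls are all at 0, and the folds become at least 112, 144 and 61.5 against 3 reads summed over them.

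Cd226 (chromosome 18, 89176967 to 89272229, plus strand) encodes DNAM-1, an adhesion receptor of natural killer and T cells that binds the proteins of Pvr and Nectin2. It had no read in the controls, in ATF4 or in CHOP replicate 4. It was at 5.72, 6.22, 7.03, 7.39 and 8.12 CPM in ATF3, at 2.49, 3.80, 3.87 and 7.98 CPM in the other four CHOP libraries and at 29.2, 36.7, 40.0 and 45.3 CPM in CEBPG. CEBPG again lay above all others, with ATF3 and CHOP overlapping. Cd226 was higher in CEBPG than in ATF3 (log2 fold change 2.45, SE 0.61, adjusted p = 0.00692) and than in CHOP (3.39, SE 0.63, adjusted p = 0.000525). Its means were at least 92.5-fold, 48.6-fold and 507-fold above the control floor in ATF3, CHOP and CEBPG.

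Aqp3 (chromosome 4, 41092722 to 41098183, minus strand) encodes a channel for water and glycerol, best known in skin and other epithelia and also present in T cells. It had no read in the controls and 1 read in the ATF4 libraries together. It was at 6.72, 7.38, 7.52, 9.45 and 9.71 CPM in ATF3, at 2.63, 10.1, 19.4 and 24.5 CPM in CEBPG and at 0, 0.674, 0.998, 2.49 and 2.80 CPM in CHOP. Every ATF3 library lay above every CHOP library, and CEBPG replicate 6, the lowest of its group, fell within the CHOP range. Aqp3 was higher in CEBPG than in CHOP (log2 fold change 3.37, SE 0.80, adjusted p = 0.00354). The difference between CHOP and ATF3 had no call by edgeR (-2.57, SE 0.76, adjusted p = 0.0869), while DESeq2 gave an adjusted p of 0.0156. CEBPG minus ATF3 was 0.80 (SE 0.74, adjusted p = 0.497). The bounds against the control floor were at least 109-fold, 190-fold and 18.7-fold in ATF3, CEBPG and CHOP.

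Over the 8 genes, 4 were higher in CEBPG than in ATF3 and 0 lower, where 10.2% of all 16797 genes tested were called higher and 10.1% lower. In CEBPG against CHOP, 7 were higher and 0 lower, with 13.5% and 13.2% of all genes called in those directions. In CHOP against ATF3, 0 were higher and 2 lower, with 0.756% and 1.51% of all genes called. The median log2 fold changes of the 8 genes were 1.79, 3.18 and -0.90 in these comparisons, beside 0.00, -0.03 and 0.01 over all genes. All 8 genes passed the filter on low counts, and since they were chosen for high levels in some of these groups, neither the counts nor the medians support anything further. Leaving out any 1 library of the groups compared left the counts at 4, 7 and 2. Without CEBPG replicates 6 and 8 together, the counts in CEBPG against ATF3 and against CHOP stayed at 4 and 7.

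**Figure D2:**
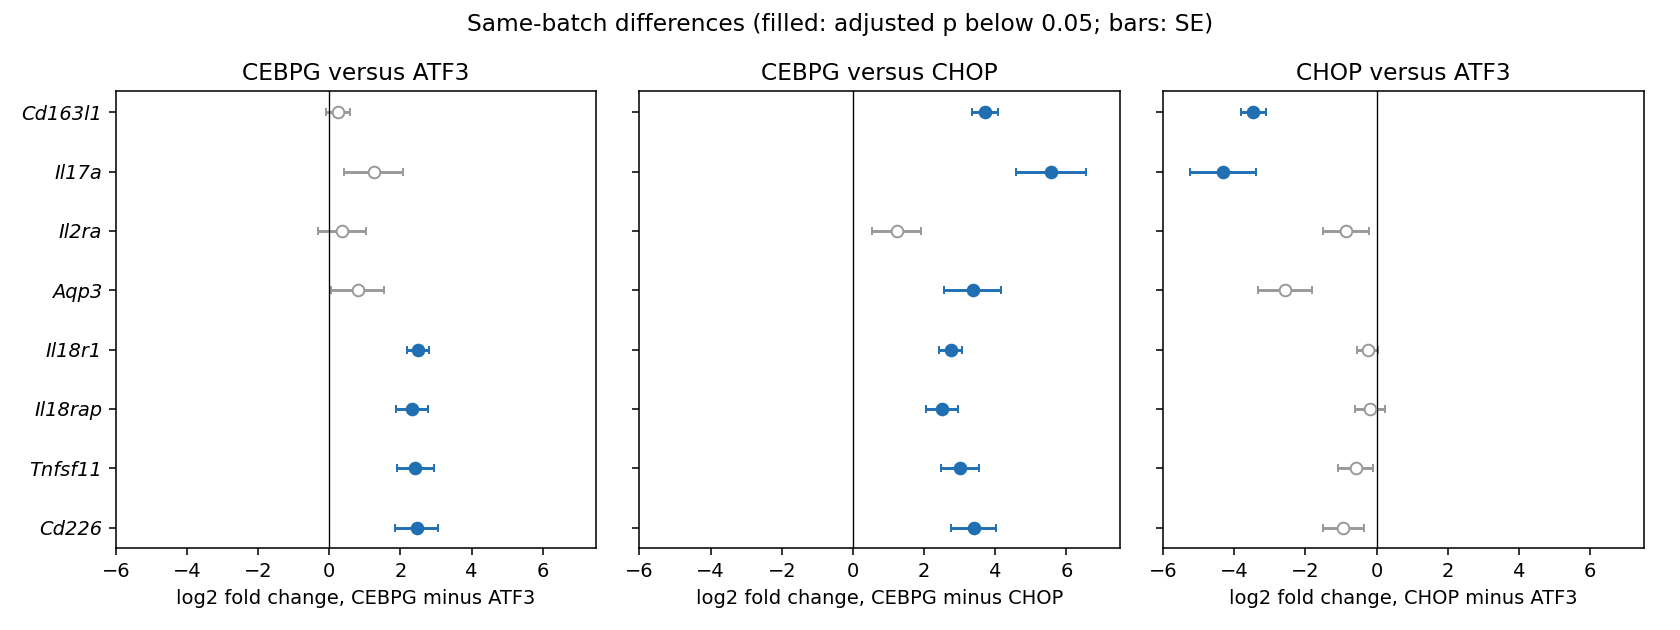
Log2 fold change of each of the 8 genes between knockout groups of the shared batch, with bars of 1 standard error and filled points where the adjusted p of edgeR's test was below 0.05. Cd163l1 and Il17a are filled in both comparisons with CHOP and open in CEBPG against ATF3, while Il18r1, Il18rap, Tnfsf11 and Cd226 are filled in both comparisons with CEBPG.

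Split after they were seen, by the difference between CEBPG and ATF3 alone, the values gave 2 patterns. Cd163l1, Il17a, Il2ra and Aqp3 had means in CEBPG between 1.18 and 2.38 times those in ATF3 by the fitted fold change, none of which passed the test. Il18r1, Il18rap, Tnfsf11 and Cd226 had means in CEBPG between 5.01 and 5.63 times those in ATF3, and all 4 passed. The split is not clean. Over the 14 libraries of the 3 groups, Cd163l1, Il17a and Aqp3 correlated with each other at 0.79 to 0.88 in log2 CPM. Il2ra correlated at 0.82 with Cd226, against 0.70 with Il17a, 0.52 with Cd163l1 and 0.38 with Aqp3. Within groups the genes did not keep a common order. ATF3 replicate 6 had the lowest Il17a of its group (2.43 CPM) and the highest Cd163l1 (101 CPM) and Il18rap (8.94 CPM). CHOP replicate 4 had the highest Cd163l1 of its group (15.9 CPM) with no read of Il17a or Cd226, and CHOP replicate 2 had the lowest Cd163l1 (2.92 CPM) and the highest Il18rap (8.03 CPM). CEBPG replicate 6 had the highest Cd163l1, Il18rap and Cd226 of its group and the lowest Tnfsf11 and Aqp3.

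Per kilobase of exon, which allows genes to be compared, Cd163l1 was the most abundant of the 8 in ATF3 (24.1 ± 1.92 CPM per kilobase), CEBPG (28.5 ± 4.68) and CHOP (2.21 ± 1.52). Il17a came second in ATF3 (7.36 ± 4.45) and CEBPG (17.6 ± 4.01), and in CEBPG the 2 levels were further apart than their SDs. In CHOP, Il17a had the lowest level per kilobase of the 8 (0.395 ± 0.573). There Tnfsf11 (1.58 ± 0.451) followed Cd163l1, a gap smaller than the SD of Cd163l1.

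Because T cell RNA differed between the groups, each gene was also expressed as reads per read of Cd3d, Cd3e and Cd3g in the same library. This is a description, with no test. For Cd163l1 the ratio was 0.819 ± 0.0875 in ATF3 (0.689 to 0.916, n = 5), 0.197 ± 0.0671 in CEBPG (0.152 to 0.296, n = 4) and 0.0701 ± 0.0524 in CHOP (0.0185 to 0.146, n = 5). The 3 groups did not overlap, so the overlapping levels of Cd163l1 in ATF3 and CEBPG went with unequal ratios to CD3. In the controls, 0 Cd163l1 reads beside 99 CD3 reads allow a ratio of up to 0.0303, and in ATF4, 0 beside 381 allow up to 0.00787, both for counting error only. The limit in ATF4 is below every ratio of the batch 3 libraries, while the limit in the controls lies within the CHOP range.

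For Il17a the ratio was 0.0743 ± 0.0417 in ATF3, 0.0363 ± 0.00973 in CEBPG and 0.00344 ± 0.00499 in CHOP, with ATF3 and CEBPG overlapping and CHOP below both. Il2ra stood at 0.105 ± 0.0191 in ATF3, 0.0482 ± 0.0228 in CHOP and 0.0256 ± 0.00895 in CEBPG, where ATF3 lay above the overlapping other groups. Aqp3 likewise stood at 0.0722 ± 0.0148 in ATF3, above the overlapping CEBPG (0.0227 ± 0.0138) and CHOP (0.0116 ± 0.00994). The other four genes overlapped between ATF3 and CEBPG. Il18r1 was at 0.0621 ± 0.00862 and 0.0698 ± 0.0187 in those groups, Il18rap at 0.0449 ± 0.0256 and 0.0470 ± 0.0242, Tnfsf11 at 0.0461 ± 0.0149 and 0.0467 ± 0.0153, and Cd226 at 0.0612 ± 0.0116 and 0.0694 ± 0.0275. Their CHOP means were lower, from 0.0272 for Tnfsf11 to 0.0458 for Il18r1, with ranges that overlapped those of ATF3 or CEBPG. Outside batch 3, Il18rap stood at 0.0660 in ATF4 replicate 1 and at 0.333 in ATF4 replicate 3, which had 63 CD3 reads. Il2ra stood at 1.08 in control replicate 7, which had 25 CD3 reads. The ratios of 0.333 and 1.08 lay above every batch 3 ratio of the same gene.

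**Figure D3:**
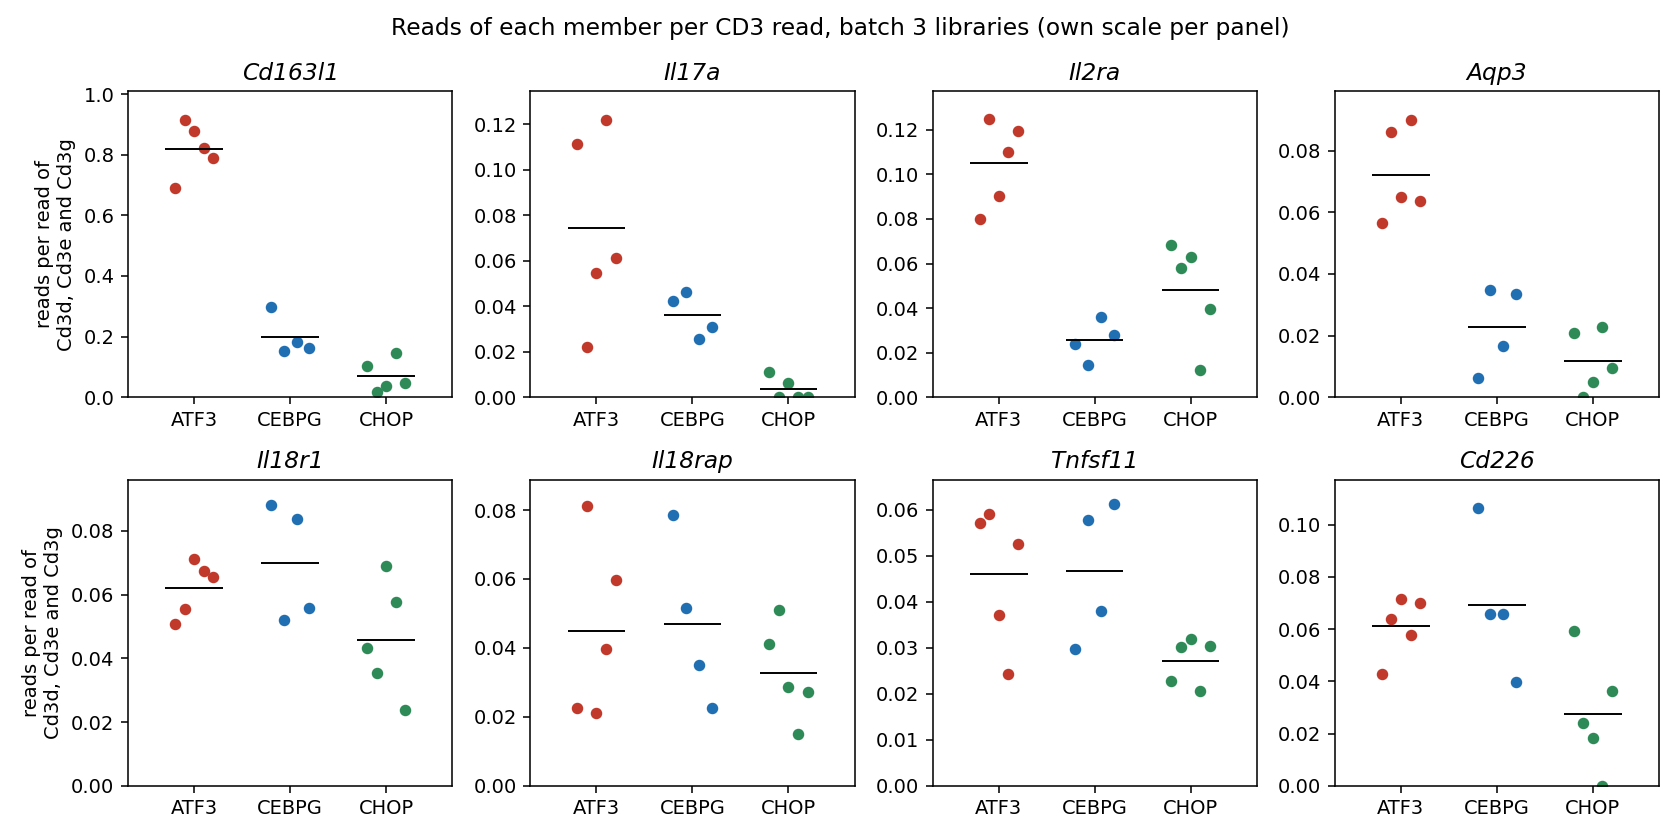
Reads of each gene per read of Cd3d, Cd3e and Cd3g in the libraries of batch 3, with 1 point per library, a line at the group mean and a separate linear scale in each panel. Cd163l1 separates into 0.689 to 0.916 in ATF3, 0.152 to 0.296 in CEBPG and 0.0185 to 0.146 in CHOP, while Il18r1, Il18rap, Tnfsf11 and Cd226 overlap between ATF3 and CEBPG.

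Other genes of the type 17 program, with transcription factors, cytokines and receptors of these cells, were taken as a list of 23. In CEBPG against ATF3, 9 of the 23 were higher and 1 lower, and the median log2 fold change was 0.82. The higher genes with the lowest adjusted p were Cxcr6, a chemokine receptor of tissue T cells (log2 fold change 2.31, SE 0.24, adjusted p = 3.83e-07), the cytokine gene Ltb (2.46), the costimulatory receptor Icos (1.88) and Il12rb1, a receptor chain shared by interleukin-12 and interleukin-23 (1.90). Il1r1, the receptor for interleukin-1, was the 1 gene that was lower (-1.32, SE 0.41, adjusted p = 0.0233), at 11.8 ± 8.56 CPM in CEBPG and 29.7 ± 7.49 CPM in ATF3. Leaving out ATF3 replicate 5 or 7, or CEBPG replicate 6, 8 or 10, ended the call, with adjusted p of at most 0.0756, as did leaving out CEBPG replicates 6 and 8 together (-0.81, adjusted p = 0.257).

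In CEBPG against CHOP, 13 of the 23 were higher and 1 lower, with a median of 2.11. The lower gene was Rora, a transcription factor gene also expressed by retinal neurons (-0.35, adjusted p = 0.0143), and without CEBPG replicate 6 or 10, or replicates 6 and 8 together, 0 were lower. In CHOP against ATF3, 0 were higher and 5 lower, with a median of -0.46, and the 5 are named here after their values were seen. Il17f, the close relative of Il17a, was at 1.96 ± 0.772 CPM in ATF3 and had no read in any CHOP library. Blk, a kinase of B cells and of gamma delta cells that make interleukin-17, fell from 13.5 ± 2.58 CPM in ATF3 to 1.12 ± 1.01 CPM in CHOP (log2 fold change -3.62, SE 0.71, adjusted p = 0.0045) and was at 13.9 ± 9.33 CPM in CEBPG. Il1r1 fell from 29.7 to 5.87 ± 3.23 CPM (-2.34, adjusted p = 0.00108). Ramp1, a partner of the receptor for the neuropeptide CGRP, fell from 19.2 ± 1.68 to 7.16 ± 1.41 CPM (-1.42, adjusted p = 0.000373). Serpinb1a, a protease inhibitor, was lower too (-2.48, adjusted p = 0.0359), and its call was lost without 9 of the 10 libraries in turn (adjusted p up to 0.0991).

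The gene next to Cd163l1 on chromosome 7 is 5830411N06Rik, also called Scart2, a paralog also known from gamma delta cells. It was at 1.28 ± 2.05 CPM in ATF3, 7.45 ± 8.69 CPM in CEBPG and 2.03 ± 2.42 CPM in CHOP, and none of its differences between these 3 knockouts passed. No source used here states how reads that fit both paralogs were counted, so the split between them is uncertain.

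Against control, where 18.6%, 16.6%, 18.3% and 18.1% of all genes were called higher in ATF3, ATF4, CEBPG and CHOP, 15, 7, 15 and 11 of the 23 program genes were called higher. Of 14 genes shared by all T cells, 14, 11, 14 and 14 were called higher. Without ATF4 replicate 1 the ATF4 counts became 4 of the 23 and 4 of the 14. These comparisons share the control libraries, and batch and knockout cannot be told apart in them.

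Markers of other lymphocytes moved with Il18r1, Il18rap, Tnfsf11 and Cd226, the 4 genes that were called higher in CEBPG than in ATF3. All 14 genes shared by T cells were higher in CEBPG than in ATF3 (median log2 fold change 2.58) and than in CHOP (2.27), and 0 of 14 were called in CHOP against ATF3 (median 0.17). Lck, a kinase of the T cell receptor, was higher in CEBPG than in ATF3 by 2.97 (SE 0.19, adjusted p = 5.66e-10). Of 4 alpha beta T cell genes with a row, all 4 were higher in CEBPG than in ATF3 and in CHOP, with Cd4 at 111 ± 16.2 CPM and Cd8a at 81.5 ± 19.6 CPM in CEBPG and at 13.3 ± 6.60 and 7.78 ± 2.20 CPM in ATF3. In CHOP against ATF3, 1 of the 4 was lower, Cd8b1, a chain of CD8 (-1.44, adjusted p = 0.0355), and that call was lost without 7 of the 10 libraries in turn (adjusted p up to 0.0999). Of 13 natural killer and cytotoxic genes, 10 were higher in CEBPG than in ATF3, 12 were higher than in CHOP and 0 were called in CHOP against ATF3. Their summed level was 16.4 to 39.6 CPM in the controls, 105 to 125 CPM in ATF3, 641 to 1066 CPM in CEBPG and 75.5 to 147 CPM in CHOP. Klrd1, a natural killer receptor chain, was higher in CEBPG than in ATF3 by 3.35 (SE 0.41) and Eomes, a regulator of cytotoxic cells, by 3.50 (SE 0.48). Interleukin-18 receptor chains and Cd226 are expressed by these cells too, and the part of these cells in the levels of the 8 genes was not tested.

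Regulatory T cells and innate lymphoid cells also carry Il2ra and Il18r1. Of 11 such genes, 6 were higher in CEBPG than in ATF3 and 7 than in CHOP, with 1 lower in CHOP than in ATF3. Ctla4 was higher in CEBPG than in ATF3 by 2.09 (SE 0.40) and Ccr8 by 2.44 (SE 0.39). Foxp3, the regulator that defines regulatory T cells, was at 38.4 ± 3.35 CPM in CEBPG, 38.2 ± 3.27 CPM in ATF3, 27.7 ± 1.75 CPM in CHOP (0.47 higher in CEBPG on the log2 scale, adjusted p = 0.034) and 18.1 ± 4.41 CPM in the controls, where T cell genes were near 0. The 1 gene lower in CHOP was Klrg1, a receptor of mature lymphocytes, named after its value was seen (-3.65, adjusted p = 0.0148).

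**Figure D4:**
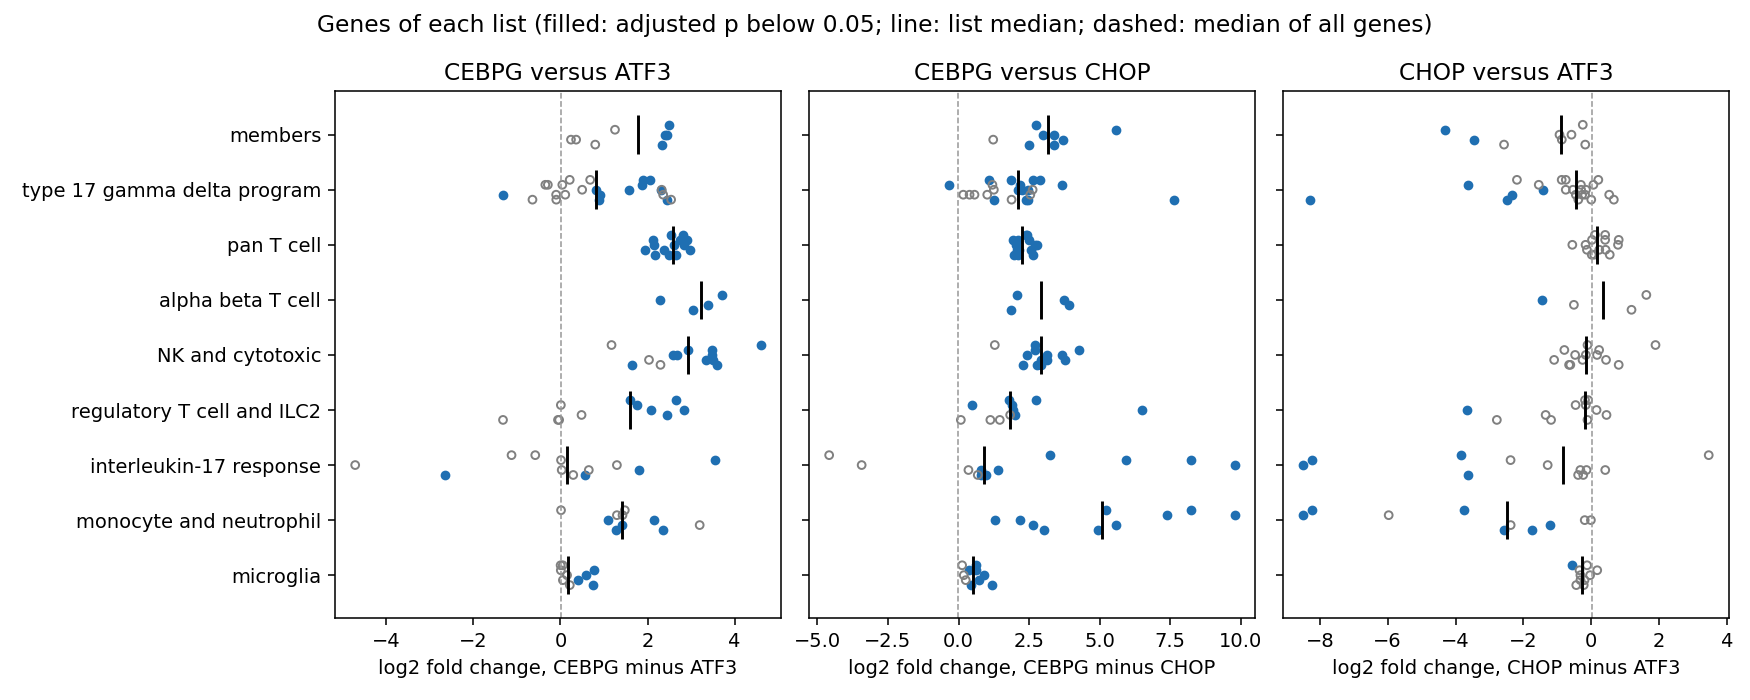
Log2 fold change of each gene of the 8 studied genes (row "members") and of 8 marker lists in the comparisons of the shared batch, with filled points where the adjusted p was below 0.05, a black line at the list median and a dashed line at the median of all genes. The 14 genes shared by T cells have medians of 2.58, 2.27 and 0.17, while monocyte and neutrophil genes have medians of 1.42, 5.08 and -2.48.

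Genes that encode ligands, receptors and signal partners of the 8 genes' products were taken as a list of 20. In CEBPG against ATF3, 8 were higher and 0 lower, and in CEBPG against CHOP, 9 were higher and 1 lower. In CHOP against ATF3, 1 was higher, Il12b, which had no read in ATF3 or CEBPG and was at 1.17 ± 0.954 CPM in CHOP. That call was lost without each ATF3 library in turn and without CHOP replicate 4 or 5. The chains that join CD25 in the interleukin-2 receptor were higher in CEBPG than in ATF3, Il2rb by 2.50 (SE 0.27, adjusted p = 7.30e-07) and Il2rg by 1.85 (SE 0.17, adjusted p = 7.61e-08). Il17ra, the receptor chain for interleukin-17 present on many cells, was higher by 1.02 (SE 0.19, adjusted p = 0.000322), and Casp1, the protease that activates interleukin-18, by 1.76 (SE 0.27). Il18 itself was at 10.4 ± 1.58 CPM in ATF3, 7.97 ± 3.85 CPM in CEBPG, 6.94 ± 3.33 CPM in CHOP and 10.6 ± 3.69 CPM in the controls, and none of its differences between knockouts passed. Pvr and Nectin2 (listed as Pvrl2), which encode the ligands of DNAM-1, did not pass in any of the 3 comparisons either, at 9.55 ± 1.33 and 31.6 ± 2.92 CPM in ATF3 and 9.37 ± 3.89 and 29.8 ± 6.59 CPM in CEBPG.

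Of 12 genes known to respond to interleukin-17, 3 were higher and 1 lower in CEBPG than in ATF3, 8 were higher and 0 lower in CEBPG than in CHOP, and 0 were higher and 4 lower in CHOP than in ATF3. Without CEBPG replicates 6 and 8, the first of these counts became 1 higher, and without CHOP replicate 1, the count of 8 became 5. Lcn2, an iron-scavenging protein of reactive glia and neutrophils, was the gene that was lower in CEBPG than in ATF3 (log2 fold change -2.66, SE 0.36, adjusted p = 1.31e-05). It was at 50.9 ± 13 CPM in ATF3, 8.03 ± 2.31 CPM in CEBPG, 4.04 ± 1.19 CPM in CHOP and 12 ± 7.11 CPM in the controls, an order unlike that of Il17a, which was highest in CEBPG. Higher in CEBPG than in ATF3 were Cxcl2, a chemokine for neutrophils (3.56, adjusted p = 0.0174, and 0.121 without CEBPG replicate 8), Zc3h12a, a ribonuclease that limits cytokine transcripts (1.81, adjusted p = 0.0124), and the transcription factor gene Cebpb (0.56, adjusted p = 0.0231, lost without ATF3 replicate 5 or 7 or CEBPG replicate 10).

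Lower in CHOP than in ATF3 were Lcn2 (-3.64, adjusted p = 1.48e-06), S100a8, S100a9 and Steap4 (-3.84, adjusted p = 0.00772), named after their values were seen. S100a8 and S100a9 had no read in any CHOP library and stood at 2.25 ± 2.89 and 1.86 ± 2.25 CPM in ATF3, and the call of S100a9 was lost without ATF3 replicate 8 or CHOP replicate 4 or 5. S100a8 and S100a9 are also defining genes of neutrophils. Of 10 monocyte and neutrophil genes, 5 were higher in CEBPG than in ATF3, 10 were higher than in CHOP, and 6 were lower in CHOP than in ATF3. Their summed level was 809 to 979 CPM in ATF3, 2058 to 2583 CPM in CEBPG, 297 to 518 CPM in CHOP and 626 to 1021 CPM in the controls. This sum thus had the order of the summed level of the 8 genes, highest in CEBPG and lowest in CHOP. The 8 genes summed to 265 to 318 CPM in CEBPG, 135 to 155 CPM in ATF3 and 22.8 to 49.6 CPM in CHOP. Single genes differed: Cd163l1 overlapped between CEBPG and ATF3, and Il18r1, Il18rap, Tnfsf11 and Cd226 overlapped between ATF3 and CHOP. Summed levels of the monocyte and neutrophil genes in the controls overlapped those in ATF3. Their part in the result was not tested.

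Genes of myeloid cells of the retina, of epithelium and of retinal neurons and glia were called as well. Among 10 microglial genes, 4 were higher in CEBPG than in ATF3, 7 were higher than in CHOP and 1 was lower in CHOP than in ATF3, with summed levels of 4111 to 4510 CPM in ATF3, 4463 to 5683 CPM in CEBPG and 2916 to 4009 CPM in CHOP. Aquaporins other than Aqp3 did not follow it: of 6, 0 were higher in any of the 3 comparisons, with Aqp4, the water channel of Müller glia, and Aqp11 lower in CEBPG than in ATF3. Of 4 epithelial genes, among which Aqp3 is usually found, 1 was higher in CEBPG than in ATF3, 2 were higher than in CHOP and 0 differed in CHOP against ATF3, and they summed to 83.6 to 111 CPM in the controls, where Aqp3 had no read. Of 2 mast cell, 4 B cell, 6 dendritic cell and 1 platelet gene, 0, 1, 1 and 0 were higher in CEBPG than in ATF3. In that comparison 3 ganglion cell genes of 12 were higher and 4 lower, 1 rod gene of 10 was higher, 4 amacrine genes of 7 were lower, and 1 Müller glial gene of 7 was higher and 5 lower. Without CEBPG replicates 6 and 8, the genes lower in CEBPG than in ATF3 numbered 2 for ganglion cells, 2 for amacrine cells, 2 for Müller glia and 1 for rods and for aquaporins, no rod gene was higher, and 1 epithelial gene was higher than in CHOP. In CEBPG against CHOP, 8 rod genes and 5 amacrine genes were lower, and 2 Müller glial genes were higher and 5 lower (amacrine 3 and Müller glial 1 lower without CEBPG replicates 6 and 8). In CHOP against ATF3, 6 rod genes were higher and 2 Müller glial genes lower.

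The genes whose levels followed the mean log2 CPM of the 8 most closely over the 14 libraries of ATF3, CEBPG and CHOP were, among 14815 genes compared, Itgb7, Ly6c2, Ramp1, Cd53, Pycard, Prdx1, Ctsh, Tagln2, Pirb and S100a6. The correlation of log2 values ran from 0.951 to 0.984. It describes mainly the order of the 3 groups, which each share genotype labels and depth ranges, and has no test. Itgb7, an integrin chain of lymphocytes, was at 58.1 ± 8.45 CPM in ATF3, 173 ± 44.1 CPM in CEBPG and 19.5 ± 8.76 CPM in CHOP. Ly6c2, a marker of monocytes and of some T cells, was at 7.31 ± 2.61, 37.6 ± 18.1 and 1.24 ± 0.892 CPM in the same order. Both were also read in the controls, at 5.10 ± 3.10 and 3.23 ± 1.46 CPM.

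The authors' deposited table gives each gene's log fold change and FDR per knockout, without naming its model or reference. An FDR below 0.05 was listed in the authors' deposited table for 7 of the 8 genes in ATF3, 1 in ATF4, 8 in CEBPG and 6 in CHOP. The share over all 17100 genes of that table was not counted. Since the 8 genes were chosen for high levels in knockout libraries, these counts are description and support nothing further. For Cd163l1 the authors' deposited table lists 15.3, 14.9 and 11.6 for ATF3, CEBPG and CHOP. For Il17a the authors' deposited table lists 10.2 (FDR 0.0502) for ATF3, 12 (FDR 0.00074) for CEBPG and 3.87 (FDR 0.548) for CHOP. The gene with an FDR below 0.05 for ATF4 in the authors' deposited table was Il18rap (6.33, FDR 0.0232), the gene with reads in both ATF4 libraries. Fitted values of this size for genes with no control read depend on the prior count and are no measure of the fold.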

How the data were processed

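The authors deposited a table of raw counts with 17164 genes and 21 libraries. The submitters' processing notes name STAR, Picard, HTSeq, edgeR and mm10 and give no versions. No source used here gives the annotation or the counting settings. A second table deposited by the authors holds log fold changes, taken as log2, with p-values and FDR. Batch, sex and age come from the deposited sample sheet, of which 38 further columns of per-sample values were not used. Groups follow the titles. 1 library titled as control, whose genotype reads CHOP knockout, was left out. The labels do not tie libraries to animals, and p-values therefore rest on the spread between libraries, which may be technical. No pair of libraries of a group agreed within sampling noise.

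Tests used edgeR 4.0.16 (R 4.3.3) on the counts as deposited. filterByExpr with a minimum count of 10 left 16797 genes and dropped 367. A single robust quasi-likelihood fit with TMM scaling and no covariate took in all 20 libraries of the 5 groups (residual degrees of freedom 15, and a biological coefficient of variation of 0.407). Genes count as called where the Benjamini-Hochberg adjusted p was below 0.05, and every adjusted p is from this test unless DESeq2 1.42.0 is named. SE is the log2 fold change divided by the root of the test statistic. The fit was tested on simulated data. Alternatives were DESeq2, its size factors, no filter, the 14 libraries of batch 3 alone, each library left out, the replicate number as a block and, added after seeing the data, CEBPG replicates 6 and 8 left out. A fit without a library was read only for comparisons of that library's group. The fit without CEBPG replicates 6 and 8 was read only for CEBPG against ATF3 and against CHOP. Bounds use 3 reads, and log2 CPM a prior count of 2.

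The 8 genes and the 20 lists were chosen with earlier results of these data known. The lists hold 223 entries, of which 176 matched a counted gene by symbol or RefSeq synonym. They leave out the 8 genes as a list and cover the type 17 program, gamma delta receptors, T cells in general and alpha beta T cells. Further lists are for regulatory T and innate lymphoid, natural killer, mast, B and dendritic cells, microglia, and monocytes and neutrophils. The others are for ganglion cells, rods, amacrine cells, Müller glia, epithelium, blood, partner genes, interleukin-17 response and aquaporins. Named from each list are up to 4 called genes per direction by adjusted p in CEBPG against ATF3, otherwise up to 3 by abundance. Foxp3, Rora, 5830411N06Rik, Il18, Pvr, Nectin2 and the genes called in CHOP against ATF3 were named after their values were seen. Coordinates and exon lengths come from GENCODE M21 (mm10) and promoters from RefSeq.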

Additional observations from a re-analysis of the deposited data

Results flagged for a closer look

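Il2ra in control replicate 7 was at 2.30 CPM (27 reads) while the other three controls had no read. It was picked out because its gap to the nearest other control is the whole range of the group. Of 25 groups of 4 or 5 libraries tested in this way over the 8 genes, 1 was picked out. For normally distributed values chance picks out about 1 in 20. A gene with reads in a single library of its group is always picked out, so that rate does not hold for Il2ra here.

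The library that was left out of all groups, titled as control but with CHOP knockout as its genotype, had 24 reads of Il18rap (0.713 CPM by its 33665965 counted reads) and 4 reads of Cd226 (0.119 CPM). Both genes had no read in any control, and a count of 0 in this library would allow up to 0.0891 CPM. It had 5 reads of Il2ra (0.149 CPM) and none of Cd163l1, Il17a, Il18r1, Tnfsf11 or Aqp3.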

How the results depend on the processing

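The counts of called genes among the 8 were 4, 7 and 2 in CEBPG against ATF3, CEBPG against CHOP and CHOP against ATF3. They stayed so with each library of the groups compared left out in turn. For single values of the 8 genes, 352 alternatives stayed on the same side of the threshold, 2 gained the call and 6 lost it, and no called value changed sign. Among values with no call, Il18rap in CHOP against ATF3 turned to 0.13 without ATF3 replicate 6 and to 0.02 without CHOP replicate 4, and Aqp3 in CEBPG against ATF3 to -0.01 with replicate number as a block. The numbers of genes called with 1 library left out ran from 2781 to 3438, from 3792 to 4345 and from 232 to 353 (without CHOP replicate 4 and, at 245, without ATF3 replicate 9, the lowest) in those comparisons, beside 3419, 4478 and 380. For genes higher in ATF4 than in control the range was 1793 to 2884, beside 2794. DESeq2 called 681 genes in CHOP against ATF3.

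Some replicate numbers are shared between groups. Libraries with the same number did not deviate together (correlations from -0.0476 to 0.0264), and the main fit used no pairing. Whether such correlations would show a pairing was not tested. With the number as a replicate block, 1895, 517 and 11 genes were called in the 3 comparisons, and 3, 3 and 1 of the 8. The 6 lost calls were those of Tnfsf11 (adjusted p = 0.112) in CEBPG against ATF3, of Tnfsf11 (0.318), Il18rap (0.309), Cd226 (0.0818) and Aqp3 (0.416) in CEBPG against CHOP, and of Il17a (0.086) in CHOP against ATF3, all by edgeR. Genes higher than in control were 613 for ATF4, 1645 for CEBPG and 1586 for CHOP under the block, and Zc3h12a in CEBPG against CHOP changed sign to -0.046 with the block. CEBPG and CHOP libraries share no replicate number, ATF3 and CHOP share only number 5, and ATF3 and CEBPG share numbers 6, 8 and 9. The block therefore leaves no direct comparison of CEBPG with CHOP within a number, and little for CHOP with ATF3. The part of this in the lost calls was not tested. A count of 0 over the group allows 0.126 CPM in ATF4 and 0.0746 CPM in the controls, the 2 shallowest groups.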
